A study of Mus musculus with 10 samples.

Results

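The semaphorins, ephrins, Slits and netrins and their plexin, Eph, Robo and Unc5 receptors were examined in mouse hearts under pressure overload. These genes were chosen by symbol alone, as semaphorins of classes 3 to 7, plexins A to D, Eph receptors and ephrins A and B, Slits, Robos, Unc5 receptors and netrins. In all, 66 of the 20692 genes of the read count table fitted the names, 35 ligands and 31 receptors. The ligands were 20 semaphorins, 8 ephrins, 3 Slits and 4 netrins. The receptors were 9 plexins, 14 Eph receptors, 4 Robos and 4 Unc5 receptors.

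Polyadenylated RNA was sequenced from 10 hearts of wild-type mice of the inbred strain FVB/NJ, 9 weeks old and labelled female. The 5 control mice had a sham operation. The aorta of the other 5 had been narrowed by surgery 1 week earlier (TAC, transverse aortic constriction), so that the left ventricle pumped against a higher pressure. The question is how cardiac transcripts differ after that week. The labels call the tissue whole heart, whereas their protocol says that the apex of the ventricles was frozen. The control libraries carry no operation in their titles, so their group rests on the design text of the series, with 5 mice in each group. No animal identifiers are given, so the replicates are taken as separate mice on that text alone.

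Library totals ranged from 7410967 to 10126574 counts. The library labelled TAC replicate 1 went against its female label, with 14 counts of Xist, the RNA of the inactive X chromosome, where the others held 1042 to 1561, and with 155 counts of the Y-linked gene Ddx3y, which was at 0 in the others. Counts of called members, partners and all genes are given with and without it. So are values of genes in which it lay far from its group. Counts by family, role and marker list, and of groups that did not overlap, include it. Ventricular cardiomyocyte markers were abundant in every library (8 genes, 72575 to 86654 CPM summed in sham and 45881 to 69231 in TAC), and of 5 atrial markers Myl7, Sln and Bmp10 had mean levels under 1 CPM in both groups. The other two were Myl4, at 2.23 CPM in sham and 1.98 in TAC, and Nppa, atrial natriuretic peptide, which the loaded ventricle is also known to make, at 132 CPM in sham and 739.6 in TAC. CPM is a gene's share of the library total, in counts per 1e6, after scaling by TMM, a factor under which most genes are alike between libraries. The aligner versions named for the 2 groups differ, so that processing and operation cannot be told apart.

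Axon guidance proteins were first described as cues that attract or repel growing axons, and the same proteins steer migrating cells and growing vessels. Secreted or membrane-bound semaphorins act through plexins, often with neuropilins as co-receptors. Ephrins stay on the cell surface and meet Eph receptor tyrosine kinases of a touching cell, Slits bind Robos, and netrins bind Dcc, neogenin and Unc5 receptors. In the heart these families are known for shaping the outflow tract, the coronary and other vessels and the nerve supply during development, and several receptors are typical of endothelium.

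After 1 week of pressure overload some guidance receptors and ligands were higher and others were lower. The receptors Plxnd1 and Unc5b rose 1.61-fold and 1.51-fold, and the Slit receptor Robo1 rose 2.4-fold. The ligands Sema3c, Sema3d and Sema4c rose 1.41-fold, 1.85-fold and 1.28-fold. The ligands Ntn1 and Efnb3 fell to 0.704 and 0.48 of their sham levels, and the semaphorin receptor Plxnb1 to 0.626 (all by edgeR, with the values and tests given under each gene). Of the 66 genes, 49 had enough counts for the test. At an adjusted p under 0.05 by edgeR, 12 were higher in TAC, 9 were lower and 28 did not pass. These are 24.5% higher and 18.4% lower, 42.9% in either direction, where 35.8% of all 12001 tested genes were called, 18.8% higher and 17.0% lower. The shares of these genes therefore lay near those of all genes, and nothing particular to the families is read from them. The groups did not overlap for 10 members, 5 with every TAC library above every sham library and 5 below. That is 10.2% in each direction, against 12.1% above and 11.6% below among all genes.

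Most changes were modest. Only Robo1 was at least 2-fold higher and only Efnb3 at least 2-fold lower among the called members. The median log2 fold change of the 49 was 0.17, beside 0.00 for all genes tested. On the size of change without its sign, the median was 0.32 for the members and 0.20 for all genes. Low counts enlarge such values, and genes of like level were not compared. Of 22 tested receptors 9 were higher (40.9%), 3 lower (13.6%) and 10 did not pass. Of 27 tested ligands 3 were higher (11.1%), 6 lower (22.2%) and 18 did not pass. Among all genes tested, 18.8% were higher and 17.0% lower. Of these receptors, Ephb4, Ephb2, Plxna3 and Plxnb2 (higher) and Epha4 and Epha7 (lower) lost the call under at least 1 alternative setting. So did the ligands Sema4b and Sema5b (lower). Whether the 2 roles differ was not tested. Scaling changed the counts of called members. When libraries were scaled by their totals alone, the median of all genes moved from 0.00 to 0.11, and 23 members were higher and 5 lower. Of all 12001 genes, 3257 were then higher and 1159 lower. Without the library labelled TAC replicate 1, 51 members were tested, of which 13 were higher and 7 lower. Of all 12094 genes tested without it, 2020 were higher and 1822 lower.

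**Figure D1:**
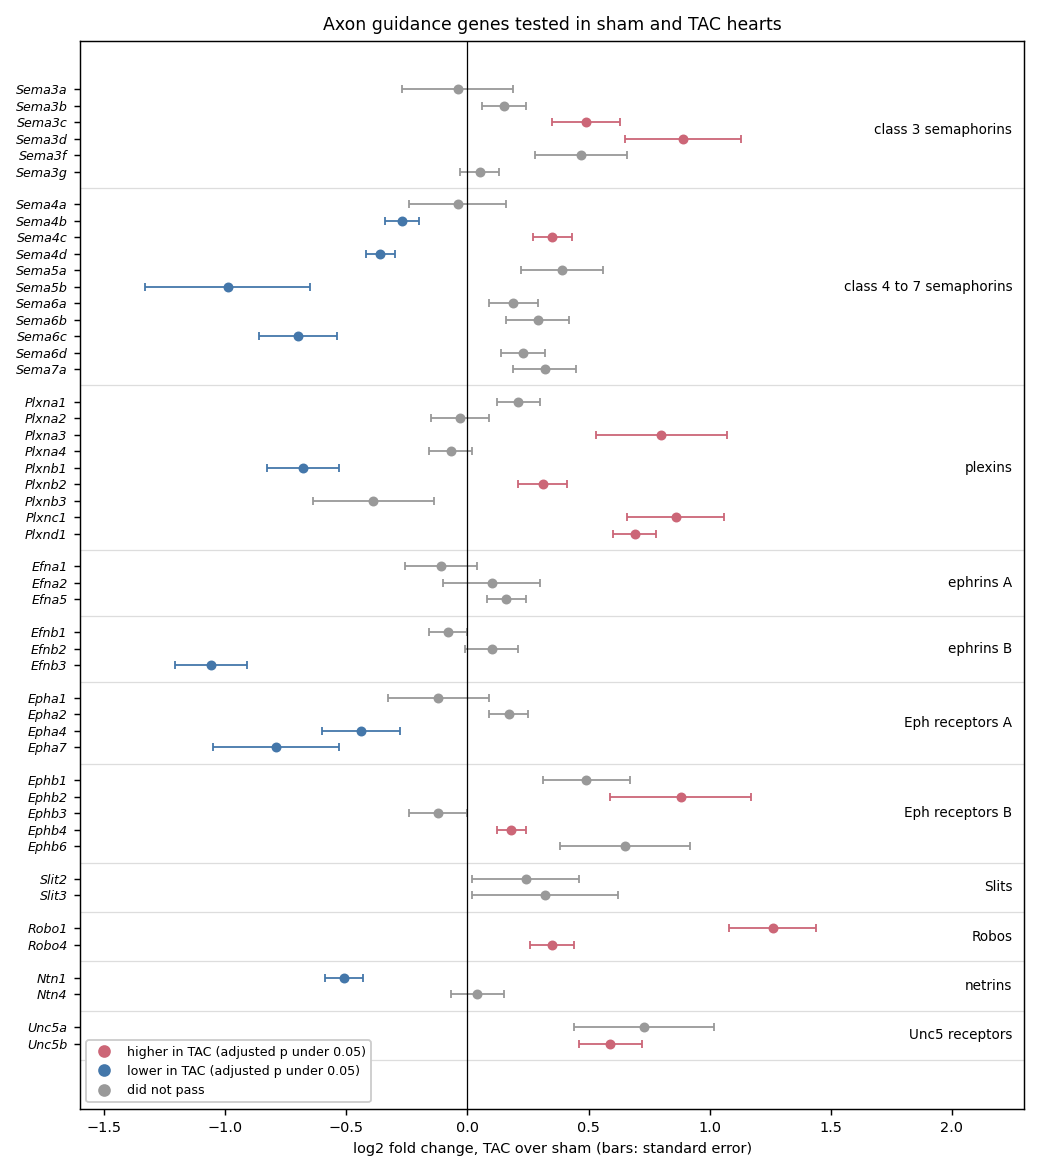
Log2 fold change, TAC over sham, of the 49 members tested, by family, with bars of 1 standard error from 5 libraries per group; red points are higher, blue points lower and grey points did not pass an adjusted p of 0.05 by edgeR. Robo1 at 1.26 and Efnb3 at -1.06 lie farthest out, and plexins hold members on both sides.

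The other 17 genes were too low to test. Their mean level was at most 1.3 CPM in either group, and their counts over all 10 libraries were at most 97. They are Efna3, Efna4, Epha3, Epha5, Epha6, Epha8, Epha10, Ntn3, Ntn5, Robo2, Robo3, Sema3e, Sema4f, Sema4g, Slit1, Unc5c and Unc5d. Epha8 and Unc5d had no count in any library. At the edge of the filter, Unc5a (88 counts in all), Sema5b (129), Efna2 (176) and Ephb2 (177) were tested, while Sema4g (97), Robo2 (91), Ntn3 (84) and Sema4f (78) were not. The filter asked for 5 libraries over a minimum level. Epha7 reached it in 5 sham and 4 TAC libraries, Sema5b in 5 sham and 2 TAC, Ephb2 in 4 sham and 5 TAC, and Unc5a in 1 sham and 4 TAC. Genes kept mainly through the group where they are higher lend no support to a count. Epha7, Sema5b and Ephb2 are nonetheless in the counts of called members above, and Epha7 is in that of groups without overlap.

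Values below are CPM in libraries 1 to 5 of each group in that order, and changes are TAC over sham on the log2 scale ± standard error. Adjusted p-values come from edgeR's quasi-likelihood test over all 12001 genes. In whole tissue, fewer cells of a type and less RNA per cell cannot be told apart, and this holds for every gene described.

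Class 3 semaphorins are the secreted members, and most of them act through neuropilins. Of 7 genes, 6 were tested, 2 rose, none fell and 4 did not pass. Sema3c (ENSMUSG00000028780), which guides cells of the cardiac outflow tract, read 7.12, 9.99, 12.5, 11.7 and 11.5 CPM in sham against 13.2, 13.3, 16.5, 16 and 15 CPM in TAC. Every TAC library lay above every sham library, and sham replicate 1 was the lowest of all. The log2 fold change was 0.49 ± 0.14 (adjusted p = 0.0134 by edgeR). Sema3d (ENSMUSG00000040254), a guidance cue for endothelial cells, was less abundant and read 2.3, 3.29, 1.55, 1.26 and 1.71 CPM in sham. Its TAC libraries read 2.77, 4.07, 4.69, 3.96 and 3.29 CPM. The groups overlapped, since sham replicate 2 lay above TAC replicate 1. Sema3d rose 1.85-fold (0.89 ± 0.24 on the log2 scale, adjusted p = 0.0129 by edgeR).

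Sema3f (ENSMUSG00000034684), a secreted ligand of neuropilin 2, had the highest level per kb of exon in its class as a mean over the 10 libraries, although Sema3g was higher in sham (11.4 against 10.7 CPM per kb). Its sham libraries read 89.0, 50.2, 43.7, 42.4 and 52.0 CPM. The TAC libraries read 70.0, 96.2, 90.7, 69.6 and 58.3 CPM. Sham replicate 1 stood far above the other controls, and the groups overlapped. The log2 fold change of 0.47 ± 0.19 did not pass (adjusted p = 0.0778 by edgeR). Without sham replicate 1 it was 0.71 with an adjusted p of 0.00212 by edgeR, and it also passed without TAC replicate 5 (0.0471). Sema3a, Sema3b and Sema3g had values of -0.04, 0.15 and 0.05 and did not pass. Sema3e, the secreted semaphorin that binds plexin D1 directly, was not tested, with 0.114 to 0.645 CPM in the sham libraries and 0.231 to 0.602 CPM in TAC.

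Semaphorins of classes 4 to 7 are bound to the membrane. Of 13 genes 11 were tested, 1 rose, 4 fell and 6 did not pass. The class 4 members moved in both directions. Sema4c (ENSMUSG00000026121), a ligand of plexin B2, read 27.6, 31.8, 27.5, 27.2 and 26.9 CPM in sham. In TAC the readings were 30.9, 35.8, 34.1, 41.4 and 37.3 CPM. Sham replicate 2 was higher than the other controls and overlapped with TAC replicate 1, the lowest of its group. Sema4c rose 1.28-fold (0.35 ± 0.08, adjusted p = 0.00491 by edgeR). Sema4d (ENSMUSG00000021451), also known as CD100, a ligand of plexin B1, read 35.0, 33.1, 34.8, 35.6 and 33.6 CPM in sham and varied little. The TAC hearts gave 29.3, 25.0, 28.5, 26.2 and 25.2 CPM, all of them below every control. Its log2 fold change was -0.36 ± 0.06 (adjusted p = 0.000818 by edgeR). Sema4b (ENSMUSG00000030539), a transmembrane semaphorin, read 29.8, 25.2, 28.0, 30.5 and 28.6 CPM in sham. Under TAC it read 22.6, 22.4, 23.7, 23.1 and 25.9 CPM. Only sham replicate 2 and TAC replicate 5 crossed between the groups. Sema4b was at 0.829 of its sham level (-0.27 ± 0.07, adjusted p = 0.00839 by edgeR), and scaling by library totals alone took away the call (adjusted p = 0.0843 by edgeR). Sema4a did not pass, at -0.04.

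Among the remaining membrane semaphorins, Sema6c (ENSMUSG00000038777) read 11.7, 9.99, 14.2, 12 and 14.4 CPM in sham and 8.19, 4.48, 7.7, 9.28 and 8.33 CPM in TAC. No TAC library reached the lowest control, and TAC replicate 2 was the lowest of all. The log2 fold change was -0.70 ± 0.16 (adjusted p = 0.00537 by edgeR). Sema5b (ENSMUSG00000052133), a transmembrane semaphorin with thrombospondin repeats, was weakly expressed at 2.09, 2.07, 1.55, 2.06 and 2.17 CPM in sham. Its TAC values of 0.461, 0.271, 1.44, 0.938 and 1.75 CPM spread widely, and TAC replicate 5 lay within the control range. Sema5b fell by 0.99 on the log2 scale (adjusted p = 0.0369 by edgeR). That call ended without sham replicate 1, 2, 4 or 5 and without TAC replicate 1, 2 or 4, with adjusted p up to 0.075 by edgeR. It also ended with library totals only (0.0615) and with the replicate number as a block (0.0506).

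Sema7a (ENSMUSG00000038264), a semaphorin anchored in the membrane by a lipid that binds integrin beta 1 and plexin C1, had the highest level per kb of classes 4 to 7. It read 113, 88.1, 81.3, 73.9 and 90.5 CPM in sham against 94.1, 127, 136, 109 and 89.0 CPM in TAC. The groups overlapped, with sham replicate 1 above 3 of the 5 TAC libraries. Its log2 fold change of 0.32 ± 0.13 did not pass (adjusted p = 0.0748 by edgeR), although it passed without sham replicate 1 (adjusted p = 0.0201 by edgeR), TAC replicate 1 (0.0453) or TAC replicate 5 (0.0332). Sema5a, Sema6a, Sema6b and Sema6d, transmembrane members, did not pass either, at 0.39, 0.19, 0.29 and 0.23. Sema5a passed without sham replicate 1 (adjusted p = 0.00574 by edgeR) or TAC replicate 5 (0.0486), Sema6b without TAC replicate 5 (0.0304) and Sema6d without TAC replicate 4 (0.0397) or with the replicate block (0.0362).

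Ephrins are the surface ligands of Eph receptors, ephrins A through a lipid anchor and ephrins B through a transmembrane tail that can itself signal. Efnb3 (ENSMUSG00000003934), ephrin B3, had the largest fall of the 49 genes tested. It read 122, 134, 177, 183 and 152 CPM in the sham libraries. In TAC it read 49.8, 74.7, 69.2, 90.6 and 84.3 CPM. Every TAC library lay below every sham library, and TAC replicate 1 was the lowest of all. Efnb3 was at 0.48 of its sham level (log2 fold change -1.06 ± 0.15, adjusted p = 0.000217 by edgeR). Without TAC replicate 1 the value was -0.94. The other ephrins B did not pass: Efnb1 had -0.08 ± 0.08 (adjusted p = 0.474 by edgeR) and Efnb2, the arterial endothelial ephrin, 0.10 ± 0.11 (adjusted p = 0.55 by edgeR). Set against Efnb2 within each library, Efnb3 counts were 3.56 to 5.68 times as many in sham and 1.24 to 3.22 times as many in TAC, without overlap.

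None of the 3 tested ephrins A passed. Efna1 (ENSMUSG00000027954), an ephrin first found as a product induced by cytokines in endothelial cells, had the highest level per kb among them. It read 22.7, 24.8, 25.4, 17.0 and 16.1 CPM in sham and 21.3, 17.6, 17.9, 15.5 and 25.4 CPM in TAC. The ranges of the 2 groups largely coincided, and the log2 fold change was -0.11 ± 0.15 (adjusted p = 0.611 by edgeR). Efna2 and Efna5 had values of 0.10 ± 0.20 and 0.16 ± 0.08. Efna3 and Efna4 were not tested.

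Slits are large secreted ligands of Robos. Neither of the 2 tested passed. Slit3 (ENSMUSG00000056427), the highest of the family per kb, read 25.2, 17.1, 13.8, 13.4 and 15.9 CPM in sham against 44.0, 16.3, 14.2, 16.1 and 16.1 CPM in TAC. TAC replicate 1 stood alone, and the other 4 TAC libraries lay within the control range. With all libraries the log2 fold change was 0.32 ± 0.30 (adjusted p = 0.445 by edgeR), and without TAC replicate 1 it was -0.13. Slit2 had 0.24 ± 0.22, and 0.01 without TAC replicate 1. Slit1 was not tested.

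Netrins are secreted relatives of laminin. Ntn1 (ENSMUSG00000020902), netrin 1, had the highest level per kb of all 65 genes with a length in the sham hearts. It read 443, 338, 339, 366 and 359 CPM in sham and 237, 275, 264, 256 and 268 CPM in TAC. Sham replicate 1 stood above the other controls, TAC replicate 1 was the lowest, and the groups did not overlap. Ntn1 was at 0.704 of its sham level (-0.51 ± 0.08 on the log2 scale, adjusted p = 0.000321 by edgeR), and leaving out any one library gave values from -0.54 to -0.43. Ntn4, a basement membrane netrin, did not pass (0.04 ± 0.11). Ntn3 and Ntn5 were not tested. Exons of Ntn5 overlap those of Sec1 over 23.4% of their length, and the libraries do not keep the strand. How reads of the shared stretch were counted is not given.

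Plexins are the semaphorin receptors, transmembrane proteins with a GTPase-activating part inside the cell. All 9 were tested, 4 rose, 1 fell and 4 did not pass. Plxnd1 (ENSMUSG00000030123), plexin D1, an endothelial receptor of Sema3e and of complexes of other class 3 semaphorins with neuropilins, had the smallest adjusted p of the members. It read 270.1, 382, 330.4, 290.0 and 301 CPM in sham against 487, 457, 541, 505 and 543 CPM in TAC. The highest control, sham replicate 2, lay below the lowest TAC library, replicate 2. Plxnd1 rose 1.61-fold (0.69 ± 0.09 on the log2 scale, adjusted p = 0.000131 by edgeR).

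The B plexins diverged. Plxnb1 (ENSMUSG00000053646), the receptor of Sema4d, read 123, 143, 166, 178 and 168 CPM in sham and 69.7, 76.1, 101, 126 and 113 CPM in TAC. The lowest control, sham replicate 1, and the highest TAC library, replicate 4, just overlapped. Plxnb1 was at 0.626 of its sham level (-0.68 ± 0.15, adjusted p = 0.00403 by edgeR), and without TAC replicate 1, the lowest library, the log2 value was -0.58. Plxnb2 (ENSMUSG00000036606), the receptor of Sema4c, read 222, 233, 241, 252 and 246 CPM in sham. Its TAC readings were 387, 257, 272, 275 and 291 CPM. All of them were above the controls, and TAC replicate 1 stood far above the rest. Plxnb2 rose 1.24-fold (0.31 ± 0.10, adjusted p = 0.0228 by edgeR). Without TAC replicate 1 the log2 value was 0.20, and without sham replicate 1 the call ended (adjusted p = 0.0501 by edgeR). Plxnb3 did not pass (-0.39 ± 0.25).

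Plxnc1 (ENSMUSG00000074785), a receptor of Sema7a also found on leukocytes, was weakly expressed, at 2.2, 2.68, 2.71, 2.06 and 1.94 CPM in sham against 5.77, 3.12, 4.45, 3.44 and 4.16 CPM in TAC, each above every control and replicate 1 the highest. It rose 1.82-fold (0.86 ± 0.20, adjusted p = 0.00433 by edgeR), and by 0.72 on the log2 scale without TAC replicate 1. Plxna3 (ENSMUSG00000031398), an X-linked A plexin, read 1.68, 4.75, 4.26, 2.06 and 3.31 CPM in sham. The TAC libraries gave 7.61, 4.48, 6.5, 4.38 and 4.71 CPM, and TAC replicates 2, 4 and 5 lay within the control range. Its log2 fold change was 0.80 ± 0.27 (adjusted p = 0.0334 by edgeR). The call ended without sham replicate 1, 4 or 5 and without TAC replicate 1 or 3, with adjusted p up to 0.0839 by edgeR. Plxna1, Plxna2 and Plxna4, which pair with neuropilins or bind class 6 semaphorins, did not pass, at 0.21, -0.03 and -0.07. Plxna1 passed without sham replicate 3 (adjusted p = 0.0396 by edgeR).

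Eph receptors of the A type mainly bind ephrins A, although Epha4 binds ephrins of both kinds. Of 9, only 4 were tested, 2 fell and 2, Epha1 and Epha2, did not pass. Epha4 (ENSMUSG00000026235), a receptor of Efnb3 and the highest of them per kb as a mean over the 10 libraries, read 30.7, 46.0, 47.6, 47.4 and 40.5 CPM in sham and 22.6, 25.7, 29.8, 36.6 and 41.1 CPM in TAC. In TAC, Epha2 was level with it per kb (3.88 against 3.87 CPM per kb). Sham replicate 1 lay low among the controls, and TAC replicates 4 and 5 lay in the control range. The log2 fold change was -0.44 ± 0.16 (adjusted p = 0.0468 by edgeR). That call ended without any one of sham replicates 2 to 5 or TAC replicates 1 to 3, with adjusted p up to 0.101 by edgeR. It ended too with library totals only (0.128) and with robust dispersion estimates (0.0697).

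Epha7 (ENSMUSG00000028289), another receptor of ephrins A, was low and even in sham, at 4.5, 4.38, 4.39, 4.23 and 4.0 CPM. In TAC it read 3.0, 0.679, 2.05, 3.44 and 2.96 CPM, below every control, with TAC replicate 2 the lowest. It was at 0.578 of its sham level (-0.79 ± 0.26, adjusted p = 0.0315 by edgeR). The call ended without any one of sham replicates 1 to 4 or TAC replicate 3, with adjusted p up to 0.0747 by edgeR, and with library totals only (0.0623). Epha1 and Epha2 had values of -0.12 ± 0.21 and 0.17 ± 0.08. Exons of Epha1 overlap those of Zyx over 6.0% of their length, and it is likewise not given how reads of that stretch were counted.

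Eph receptors of the B type bind ephrins B. All 5 were tested, 2 rose and 3 did not pass. Ephb4 (ENSMUSG00000029710), the venous endothelial receptor of Efnb2 and the highest per kb, read 148, 147, 130.4, 127 and 149.5 CPM in sham against 142, 162, 161, 167 and 161 CPM in TAC. TAC replicate 1 lay apart from the rest of its group and within the control range. Ephb4 rose 1.13-fold (0.18 ± 0.06, adjusted p = 0.0474 by edgeR). The call held in 6 of 18 alternatives. Leaving out a library ended it in 8 of 10 sets, all but those without sham replicate 1 or TAC replicate 1, with adjusted p up to 0.133 by edgeR. Without TAC replicate 1 the log2 value was 0.21. It ended as well with DESeq2 (adjusted p = 0.0584), RLE size factors (0.0521), no filter on low counts (0.0724) and the replicate block (0.085). Its ratio to Efnb2 was 3.89 to 5.05 in sham and 3.54 to 5.93 in TAC, overlapping throughout.

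Ephb2 (ENSMUSG00000028664), a receptor kinase known from axon repulsion, was low, at 0.733, 1.46, 1.68, 2.06 and 1.37 CPM in sham and 4.04, 3.26, 1.68, 2.4 and 2.08 CPM in TAC, and TAC replicate 3 lay within the control range. The log2 fold change was 0.88 ± 0.29 (adjusted p = 0.032 by edgeR). That call ended without sham replicate 1, 2 or 5 or TAC replicate 1 or 2, with adjusted p up to 0.0808 by edgeR, and with the replicate block (0.0645). Ephb1 just missed the threshold (0.49 ± 0.18, adjusted p = 0.0505 by edgeR). It passed without sham replicate 3 (adjusted p = 0.0296 by edgeR), sham replicate 4 (0.0384) or TAC replicate 1 (0.0256). It also passed with the replicate block (0.00876), robust dispersion estimates (0.0457) and library totals only (0.0215) by edgeR, with DESeq2 (adjusted p = 0.0491) and with limma-voom (adjusted p = 0.0405). Ephb3 had -0.12 ± 0.12 and Ephb6, which lacks kinase activity, 0.65 ± 0.27. For Ephb6, TAC replicate 1 read 4.5 CPM where the other TAC libraries read 1.9 to 2.09, and without it the value was 0.34.

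Robos receive Slits, except that Robo4 is the shortened endothelial member whose direct binding of Slits is disputed. Both tested members rose, and Robo2 and Robo3 were not tested. Robo1 (ENSMUSG00000022883) had the largest change of the called members. Its sham libraries read 3.35, 4.63, 3.23, 3.08 and 3.66 CPM. In TAC it read 10.0, 6.24, 10.7, 9.38 and 6.58 CPM. All TAC libraries lay above all controls, with replicates 2 and 5 the lower ones. Robo1 rose 2.4-fold (1.26 ± 0.18 on the log2 scale, adjusted p = 0.00027 by edgeR). Robo4 (ENSMUSG00000032125) read 78.2, 86.4, 84.8, 85.7 and 76.7 CPM in sham against 79.3, 111, 109, 117 and 107 CPM in TAC. TAC replicate 1 lay among the controls and the other 4 above them. Robo4 rose 1.27-fold (0.35 ± 0.09, adjusted p = 0.00949 by edgeR), and without TAC replicate 1 its log2 fold change was 0.43.

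Unc5 receptors bind netrins. Unc5b (ENSMUSG00000020099), the endothelial member, read 62.1, 90.3, 64.1, 58.4 and 62.3 CPM in sham and 127, 86.6, 105, 87.5 and 101 CPM in TAC. Sham replicate 2 stood above the other controls and overlapped the 2 lowest TAC libraries, replicates 2 and 4. It rose 1.51-fold (0.59 ± 0.13, adjusted p = 0.00331 by edgeR), by 0.72 on the log2 scale without sham replicate 2 and by 0.50 without TAC replicate 1. Unc5a was near the filter and did not pass (0.73 ± 0.29, adjusted p = 0.0675 by edgeR). Unc5c and Unc5d were not tested.

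**Figure D2:**
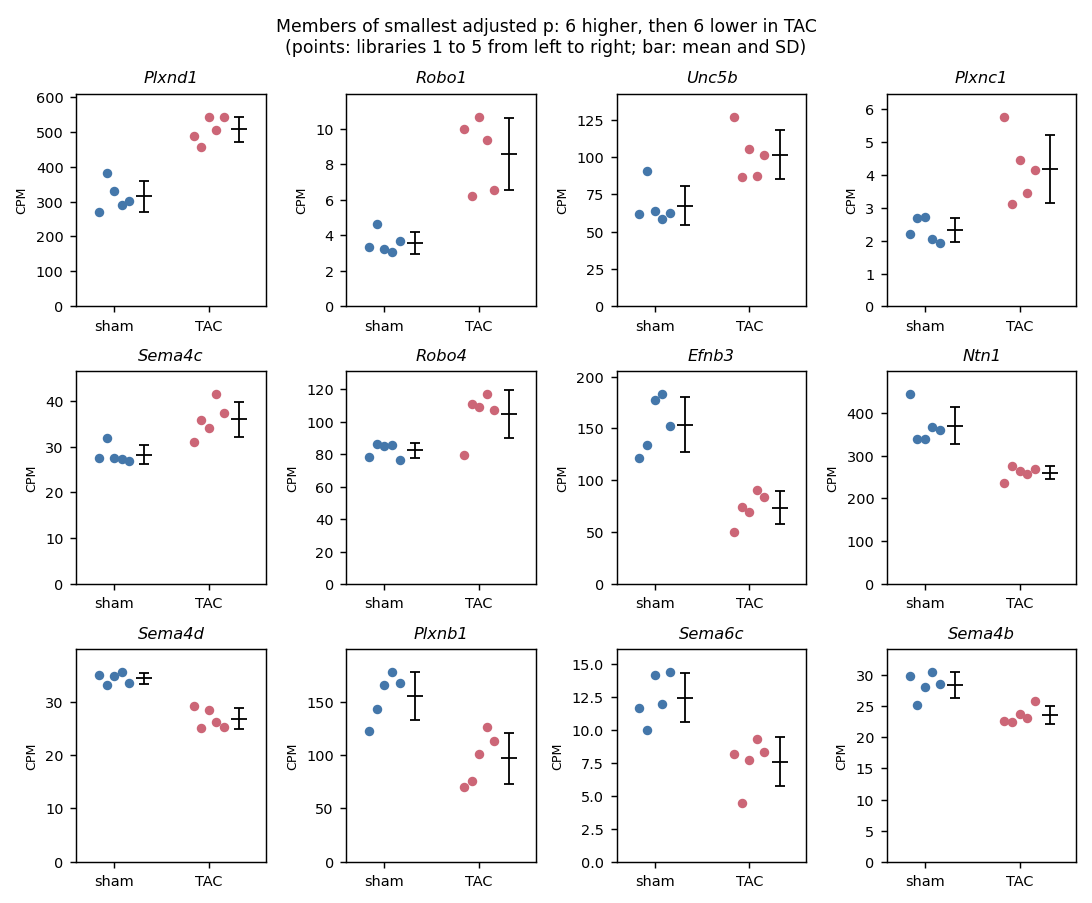
CPM in each library for the 6 called members of smallest adjusted p in each direction, with libraries 1 to 5 from left to right in each group and a bar for mean and SD. Plxnd1, Robo1 and Plxnc1 rose and Efnb3, Ntn1, Sema4d and Sema6c fell without overlap, while TAC replicate 1 lies among the controls for Robo4 at 79.3 CPM.

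The upstream sequence is shown for up to 2 members in each direction, those of smallest adjusted p among members whose call held under every alternative and that have a single start site in the RefSeq promoter table (GRCm38.p6). They are Plxnd1 and Robo1, which rose, and Plxnb1, the only one that fell and met these terms. Each run is the 250 bases before the start, 5′ to 3′ on the gene's strand, with the motif matches in capitals. Plxnd1 lies at chr6:115995006-115995255 (minus strand), Robo1 at chr16:72662899-72663148 (plus strand) and Plxnb1 at chr9:109095186-109095435 (plus strand).
Plxnd1: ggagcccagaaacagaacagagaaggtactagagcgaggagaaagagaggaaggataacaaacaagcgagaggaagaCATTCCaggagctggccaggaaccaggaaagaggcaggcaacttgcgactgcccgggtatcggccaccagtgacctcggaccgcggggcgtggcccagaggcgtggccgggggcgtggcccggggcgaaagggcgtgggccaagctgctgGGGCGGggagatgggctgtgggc
Robo1: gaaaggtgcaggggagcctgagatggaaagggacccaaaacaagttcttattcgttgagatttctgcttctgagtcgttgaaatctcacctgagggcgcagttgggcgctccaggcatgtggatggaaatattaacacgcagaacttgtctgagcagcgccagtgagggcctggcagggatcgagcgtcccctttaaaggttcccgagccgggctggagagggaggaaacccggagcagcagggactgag
Plxnb1: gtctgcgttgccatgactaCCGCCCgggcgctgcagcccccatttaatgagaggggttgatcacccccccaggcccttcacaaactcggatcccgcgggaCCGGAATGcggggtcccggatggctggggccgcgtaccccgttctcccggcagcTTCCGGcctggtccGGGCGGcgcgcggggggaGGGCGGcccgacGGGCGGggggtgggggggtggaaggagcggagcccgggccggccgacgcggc

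The motifs searched on both strands were the GC box GGGCGG, the CCAAT box CCAAT, the TATA box TATAAA, the ETS core CCGGAA, the E-box CACGTG, the AP-1 site TGANTCA, the TEAD site GGAATG and the ERR site AAGGTCA. Plxnb1 held 4 GC boxes, 2 ETS cores and 1 TEAD site that shares bases with an ETS core, in a window of 75.2% G or C. Plxnd1 held 1 GC box and 1 TEAD site, at 64.8% G or C. Robo1 held none of the 8 motifs, at 56.0%. Of the 66 members, 57 had an entry in the table, with 73 windows. A GC box stood in 51 of these (69.9%) and in 32.7% of all 32851 windows, and a TATA box in 2 (2.74%) and in 12.4% of all. Shares were closer for the CCAAT box (27.4% of member windows, 33.8% of all), the ETS core (9.59% and 12%), the TEAD site (11.0% and 12.6%), the E-box (5.48% and 6.02%) and the ERR site (4.11% and 4.08%). The AP-1 site stood in 4.11% and 6.75%. The GC box stood in 10 of 14 windows of members that rose and in 8 of 12 of members that fell. A match describes only the letters of these windows.

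Levels between genes were compared as CPM per kb of exon. In sham, Ntn1 ranked first at 58.8, Efnb3 second at 48.3 and Plxnd1 the third at 43.1 CPM per kb. In TAC, Plxnd1 ranked first at 69.4, Ntn1 second at 41.4 and Efnb3 sixth at 23.2 CPM per kb. Plxnb2 went from 30.9 to 38.4 CPM per kb, Ephb4 from 30.3 to 34.2 and Sema7a, which did not pass, from 27.1 to 33.7. Robo4 moved from 15.5 to 19.7 and Unc5b from 10.8 to 16.2 CPM per kb. Robo1, the gene with the largest rise, stayed low by this measure at 0.217 and 0.52 CPM per kb. Ranges over the 5 libraries of a group show which neighbours in this order were apart. In sham, Ntn1 (53.8 to 70.5), Efnb3 (38.4 to 57.5) and Plxnd1 (37.0 to 52.4) overlapped. In TAC, Plxnd1 (62.6 to 74.4) lay above Ntn1 (37.7 to 43.8), which overlapped with Plxnb2 (33.2 to 50.1).

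**Figure D3:**
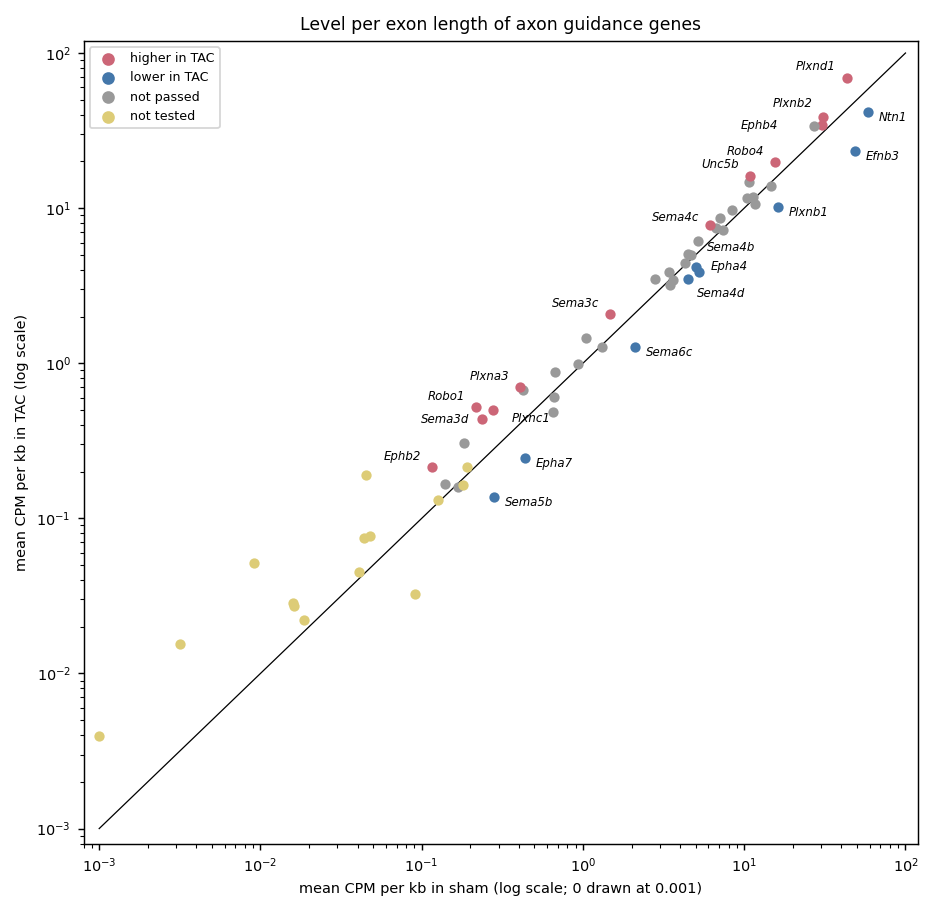
Mean CPM per kb of exon in sham (x) and TAC (y), both on log scales, with the line of equal levels and colours by the call. Drawn are the 65 members with a length, except Epha8 and Unc5d, which had no count in any library. For the drawn members, a level of 0 is placed at 0.001. Ntn1 and Efnb3 lie below the line at the high end and Plxnd1 above it, and the genes not tested lie at the low end.

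Ratios of counts within a library do not depend on scaling between libraries. The pairs below were chosen after their values were seen and are given as a description with no test. Summed over all members, receptor counts were 0.943 to 1.27 times the ligand counts in sham and 1.36 to 1.57 times in TAC, without overlap. Summed CPM of the ligands was 1205 ± 69.4 in sham and 1094 ± 34.2 in TAC (SD, n = 5), and that of the receptors 1368 ± 75.9 and 1642 ± 65.3. Abundant genes weighed heavily in these sums. Mean CPM of Plxnd1 went from 315 to 506, of Ntn1 from 369 to 259.8 and of Efnb3 from 154 to 73.7. The receptor Plxnb1 went the other way, from 156 to 97.1. By gene, the median log2 fold change was 0.10 for the 27 tested ligands and 0.26 for the 22 tested receptors. A ratio without the abundant genes was not computed, so the sums are not read as a shift of receptors or ligands in general. By family, mean summed CPM fell for netrins (386 to 277) and ephrins B (236 to 156). It rose for class 3 semaphorins (172 to 207) and for classes 4 to 7 (338 to 375). Ephrins A went from 50.6 to 52.7, and Slits from 20.9 to 26.0, with 51.3 in TAC replicate 1. Among receptors the sum rose most in plexins (973 to 1173), and Eph receptors A fell (65.9 to 54.8).

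Known partners moved in several combinations. Sema4d and its receptor Plxnb1 both fell, and Sema4c and its receptor Plxnb2 both rose. The ratio of Plxnb2 to Plxnb1 counts was 1.42 to 1.8 in sham and 2.19 to 5.55 in TAC, the last in TAC replicate 1. That of Sema4c to Sema4d was 0.763 to 0.96 in sham and 1.06 to 1.58 in TAC. Ntn1 fell while Unc5b rose, and their ratio, Unc5b over Ntn1, went from 0.14 to 0.267 in the sham libraries to 0.315 to 0.538 in TAC. Neo1 (neogenin), also a netrin receptor, fell with Ntn1, by a call that held in 12 of 18 alternatives. Efnb3 and Epha4 both fell, but the call of Epha4 held in only 9 of 18 alternatives. The ephrin B receptors Ephb2 and Ephb4 were called higher, and their calls held in 12 and 6 of 18. Plxnc1 rose where its ligand Sema7a did not pass, and Robo1 rose where Slit2 and Slit3 did not pass.

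**Figure D4:**
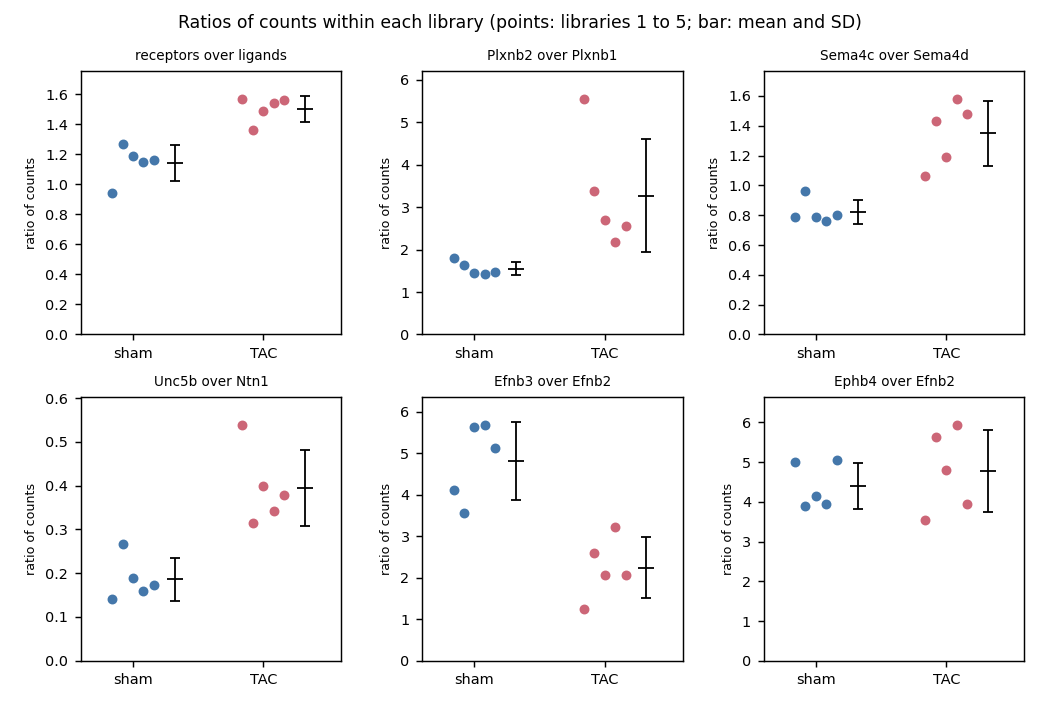
Ratios of read counts within each library for summed receptors over ligands and for 5 pairs, with points for libraries 1 to 5 of each group and bars for mean and SD. The groups do not overlap for all receptors over all ligands, Plxnb2 over Plxnb1, Sema4c over Sema4d, Unc5b over Ntn1 and Efnb3 over Efnb2, and they overlap for Ephb4 over Efnb2. Abundant genes such as Ntn1, Efnb3 and Plxnd1 weigh heavily in the ratio of all receptors over all ligands.

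The other genes of the pathway were taken as a list of 52 co-receptors, further ligands and intracellular effectors, chosen with earlier results of these data known. Of the 51 in the table, 46 were tested: 22 rose, 5 fell and 19 did not pass, or 47.8% higher and 10.9% lower beside 18.8% and 17.0% of all genes. Their median log2 fold change was 0.29, beside 0.00 for all genes. Without TAC replicate 1, 20 of the 46 rose and 4 fell.

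Nrp2, neuropilin 2, a co-receptor of Sema3c and Sema3f, read 72.2, 102, 101, 81.0 and 84.8 CPM in sham against 154, 175, 179, 169 and 188 CPM in TAC, well above every control. It rose 1.96-fold (0.97 ± 0.09, adjusted p = 2.71e-05 by edgeR). Nrp1, neuropilin 1, rose less, from 128 ± 9.49 to 149 ± 8.45 CPM (SD, n = 5), by 0.21 ± 0.06 on the log2 scale (adjusted p = 0.0177 by edgeR). Without sham replicate 4 this call was lost (adjusted p = 0.0518 by edgeR). Neo1, neogenin, a netrin and RGM receptor, fell from 98.3 ± 9.67 to 81.0 ± 10.2 CPM (-0.28 ± 0.09, adjusted p = 0.0307 by edgeR). Its call ended without sham replicate 3 or 4 or TAC replicate 1, 2 or 3, with adjusted p up to 0.0738 by edgeR, and with library totals only (0.196). Dcc, the other main netrin receptor, had no count in any library.

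Of the other partners, Dpysl3, a collapsin response mediator that binds the cytoskeleton downstream of semaphorins, went from 46.5 ± 5.09 to 95.4 ± 12.8 CPM (1.04 ± 0.10, adjusted p = 2.71e-05 by edgeR). Fes, a tyrosine kinase of plexin signalling, rose 1.5-fold (adjusted p = 0.000296 by edgeR), Farp1, a GTPase exchange factor, 1.43-fold (0.0014), and Itgb1, integrin beta 1, 1.27-fold (0.000409). Among those that fell, Rgma and Hfe2, ligands of neogenin, had log2 fold changes of -0.36 ± 0.08 and -0.39 ± 0.06 (adjusted p = 0.00323 and 0.000418 by edgeR). Ablim1, an actin-binding LIM protein related to a netrin effector of worms, had -0.45 ± 0.08 (adjusted p = 0.00109 by edgeR). In each of these 3 genes every TAC library lay below every control.

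Markers of several cell types of the heart also differed between the groups, where 18.8% of all genes tested were called higher and 17.0% lower. Of 10 endothelial markers 3 rose and 7 did not pass, and their sum was 1579 to 1859 CPM in sham and 1776 to 2081 CPM in TAC. This list stands beside Plxnd1, Robo4, Unc5b and Ephb4, which are known from endothelium, and its part in their rise was not tested. Of 8 fibroblast markers 6 rose, and the sum was 609 to 783 CPM in sham and 1394 to 1671 CPM in TAC replicates 2 to 5, with 3810.2 CPM in TAC replicate 1, the library in which Slit3 and Plxnb2 were far above the rest. Of 7 macrophage markers 6 rose, and their sum was 114 to 139 CPM in sham, 185 to 198 CPM in TAC replicates 2 to 5 and 323 CPM in TAC replicate 1, the library with the highest Plxnc1. Of 8 smooth muscle and pericyte markers 3 rose and 5 did not pass (1225 to 1581 CPM in sham, 1349 to 1492 CPM in TAC).

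Of the 8 ventricular cardiomyocyte markers 7 fell and 1, Actn2, did not pass, with the lowest sum, 45881 CPM, in TAC replicate 1. Among the members called lower, that library had the lowest Efnb3, Ntn1, Plxnb1 and Epha4. It did not have the lowest Sema4b, Sema4d, Sema5b, Sema6c or Epha7, and its Sema4d, at 29.3 CPM, was the highest of the TAC group. Nerve and glial markers summed to 11.0 to 15 CPM in sham and 8.82 to 16.5 CPM in TAC, 3 of 9 were tested, none passed, and Th was at 0 in every library. Lymphocyte markers were too low to test, at 1.37 to 2.31 CPM in sham and 1.36 to 2.08 CPM in TAC. Among lymphatic markers Flt4 rose and Prox1 fell of 4 tested (158 to 179 CPM summed in sham, 148 to 182 in TAC), and of 4 tested epicardial markers Wt1 rose (25.8 to 47.3 and 27.4 to 55.4 CPM). Whether any of these cell populations accounts for a change in a guidance gene was not tested.

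Of the 21 called members, 13 were called in the same direction under all 18 alternatives. These are Plxnd1, Robo1, Unc5b, Plxnc1, Sema4c, Robo4, Sema3c and Sema3d, which rose, and Efnb3, Ntn1, Sema4d, Plxnb1 and Sema6c, which fell. The other 8 lost the call under at least 1 alternative. Of the 28 members that did not pass, 11 passed under at least 1 alternative, all 11 of them with library totals only, and 17 under none.

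**Figure D5:**
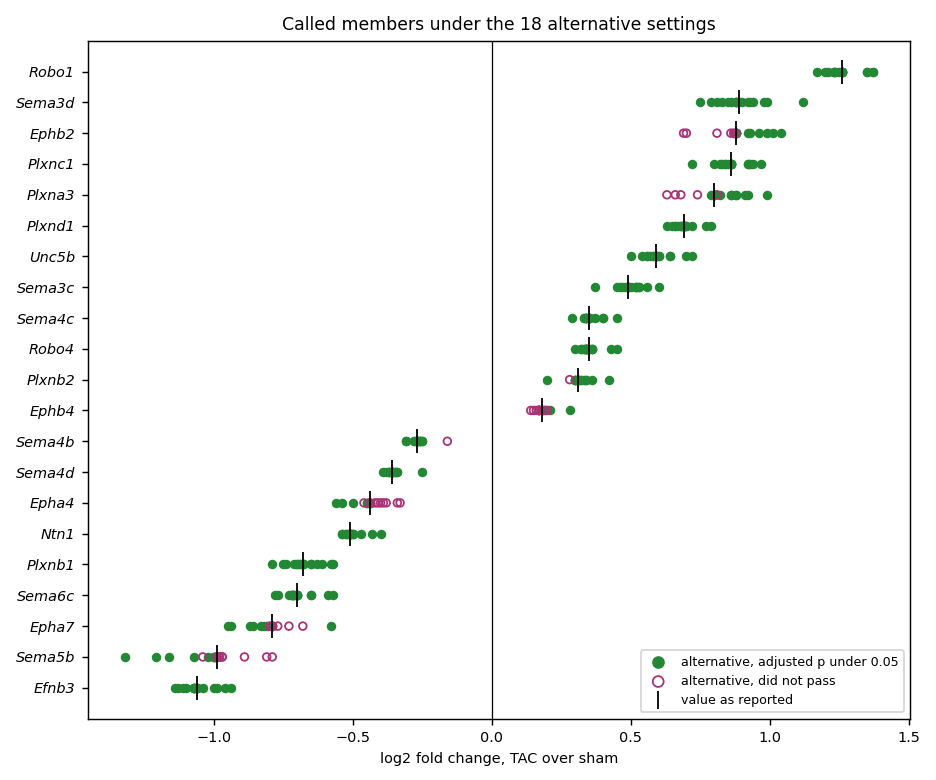
Log2 fold change of each of the 21 called members under the 18 alternatives, with filled points where the adjusted p was under 0.05, open points where it was not and a vertical mark for the value as reported. No member crosses 0, and open points gather on Ephb4, Epha4, Sema5b, Epha7, Ephb2 and Plxna3.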

How the data were processed

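The authors deposited a table of whole-number read counts per Ensembl gene, not normalized, for the 10 libraries, which were single-end and kept no strand per the labels' protocols. Per the submitters' processing notes, Bowtie2, TopHat2 2.0.10, HTSeq and mm10 served for sham, while the TAC libraries list TopHat 1.3.0 with Bowtie, HTSeq and both mm9 and mm10; the column header of gene IDs names GRCm37 for all. The sources used here give no counter settings. A row of column totals was left out.

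Differences were tested by the quasi-likelihood F test of edgeR 4.0.16, with limma 3.58.1 in R 4.3.3, on counts with TMM factors. Low genes were removed by filterByExpr (minimum count 10, minimum total 15), the model held group alone, and p-values of 12001 genes were adjusted after Benjamini and Hochberg at 0.05. The 8691 genes below the filter were not tested. The method was also run on simulated counts, with a small share of genes changed in both directions. That run does not bear on the choice of scaling or on the difference in processing between the groups. Alternatives were library totals, RLE factors, 2 other filters, DESeq2 1.42.0, limma-voom, robust dispersions, a replicate block and leaving out each library. Exon lengths came from GENCODE M21 (GRCm38), which matched 94.6% of IDs and 65 of 66 members (Ntn3 not), and promoters from RefSeq. P-values set the difference between the groups against the spread between these libraries within a group.

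Values in every library were given for up to 12 called members of smallest adjusted p in each direction and for the highest per kb in each family, and partners for up to 5 in each direction with Nrp1, Nrp2, Dcc and Neo1. A partner taken by this rule is not reported here by name, but stays in the counts. The member families and the lists were chosen with earlier results of these data known; within the families, genes were taken by symbol.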

Additional observations from a re-analysis of the deposited data

Results flagged for a closer look

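In 13 of 98 groups of 5 libraries, 1 per tested member and condition, the highest or lowest library lay so far from the nearest of the others, relative to the range of its group, that it passed the 95% limit of Dixon's test. Chance alone gives about 1 in 20. TAC replicate 1 was that library in 5. It was highest for Slit3 (44.0 CPM, others 14.2 to 16.3), Plxnb2 (387 CPM, others 257 to 291) and Ephb6 (4.5 CPM, others 1.9 to 2.09). It was lowest for Robo4 (79.3 CPM, others 107 to 117) and Ephb4 (142 CPM, others 161 to 167).

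Sham replicate 1 was that library in 5 as well. It was highest for Ntn1 (443 CPM, others 338 to 366), Plxna2 (149 CPM, others 118 to 125) and Sema3f (89.0 CPM, others 42.4 to 52.0), and lowest for Ntn4 (12.7 CPM, others 16.2 to 17.5) and Sema6a (33.5 CPM, others 39.8 to 41.4). Sham replicate 2 was highest for Unc5b (90.3 CPM, others 58.4 to 64.1) and Sema4c (31.8 CPM, others 26.9 to 27.6), and sham replicate 3 lowest for Sema5b (1.55 CPM, others 2.06 to 2.17).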

How the results depend on the processing

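When libraries were scaled by their totals alone, 23 members were higher and 5 lower, and of all genes 3257 were higher and 1159 lower. No other setting moved a count of members, partners or all genes by more than 1.5 times. Leaving out each library gave 9 to 15 members higher and 6 to 9 lower. The partners ranged from 19 to 27 higher and 4 to 5 lower over all settings. Shared replicate numbers did not pair the libraries (correlations of same-numbered deviations from -0.0916 to 0.222, and only number 4 was best matched by its own number). With the replicate number as a block, 12 members were higher, 10 of them shared with the unblocked calls, and 8 were lower, all shared; 22 partners were higher and 5 lower, and 2113 genes were higher and 1924 lower.

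Signs turned only for members that did not pass. With library totals these were Plxna2 (0.07), Sema4a (0.06), Sema3a (0.07), Plxna4 (0.04) and Efnb1 (0.03). Leaving out a library gave log2 values from -0.11 to 0.06 for Plxna2, -0.20 to 0.09 for Sema4a, -0.17 to 0.06 for Sema3a, -0.14 to 0.01 for Plxna4, -0.04 to 0.09 for Ntn4, -0.01 to 0.08 for Sema3g, -0.24 to 0.03 for Epha1 and -0.13 to 0.50 for Slit3. The cause was not tested. Depth limits the low members: genes under about 1 CPM rest on few reads, and no statement is made on the 17 not tested. Confounding of processing with group cannot be resolved here.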
